A study of Homo sapiens with 5 samples.

Results

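The genes described here are 43 genes of the G1/S transition and of DNA replication, the kind of list used to score S phase, chosen by name from the 24497 gene rows of a deposited count table. The table listed 42 of them under the given symbol, and the remaining one, MLF1IP, was found under CENPU, which RefSeq gives as its current symbol. Expression was profiled in HEK293, an established human line from embryonic kidney that was transformed with adenoviral DNA, by RNA sequencing that keeps the 5' ends of transcripts. The libraries formed 2 groups, batch B with 3 libraries and batch A with 2 libraries, for which the labels give the same line, medium and protocol text and no treatment. The spike-in RNA that this protocol text places in the lysis buffer differed all the same, at 13, 1 and 19 counts in batch B libraries 1, 2 and 3 and 1785 and 2127 in batch A libraries 2 and 3. Its part in the differences below was not tested. Each library held the amplified material of 100 cells, taken after reverse transcription of a lysate of 1000 cells and amplified over 18 PCR cycles. Nothing in the labels ties the libraries to separate cultures, and p-values therefore measure the spread between libraries, which may be technical. Libraries are named by the numbers that end their column names, 1, 2 and 3 in batch B and 2 and 3 in batch A.

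Before S phase, the origin recognition complex, CDC6 and CDT1 load the MCM2-7 helicase onto origins. CDC45 and the GINS complex then turn it into an active helicase, and primase, the replicative polymerases, the PCNA clamp and single-strand binding protein RPA copy the strands. Many of these genes are transcribed by E2F factors at the end of G1, once the retinoblastoma protein has released them. The adenoviral E1A protein that HEK293 cells make binds retinoblastoma family proteins and frees E2F.

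The libraries held 373687, 575472 and 685181 gene counts in batch B and 686883 and 803168 in batch A. A gene with 0 counts could therefore reach 8.03 CPM (counts scaled to a common library total) in the shallowest library and 3.74 CPM in the deepest, if 3 counts are taken as the limit. All 8 markers listed for HEK293 were detected, with 338 to 651 counts in sum per library, among them VIM (vimentin) with 205 to 343 counts and the neurofilament NEFL with 30 to 43. PAX2, a kidney transcription factor, had only 1 to 4 counts in any library. The 6 fibroblast markers summed to 5 to 19 counts per library in batch B and 4 to 10 in batch A, and COL1A1 gave 3 to 13 of them. The 4 blood and 3 hepatocyte markers with a row summed to at most 5 and 4 counts in any library, and COL1A2, CD3E and ALB stood at 0 in all of them.

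The promoters of these genes carried the letters bound by E2F more often than those of other genes. This is shown first because it is a feature that many of them, but not all, have apart from the choice by name. RefSeq windows on GRCh38.p14, from 250 bases before to 50 after the annotated start, were found for 34 of the 43 genes, with the window listed first taken for each gene. TTTCCCGC, TTTCGCGC, TTTGCCGC and TTTGGCGC, the core forms of the E2F site, were searched on both strands. They stood in 18 of the 34 windows (52.9%), against 420 of the 6907 windows of genes tested below (6.08%) and 908 of all 27305 windows (3.33%). Of 43 windows of G2 and mitosis genes, 3 held them (6.98%). The 25 matches merged to 22 separate stretches, because forward and reverse letters overlap at some sites, and 4 windows had more than 1 stretch. In 12 of the 18 windows (66.7%) a match lay within 50 bases of the start, against 154 of 420 (36.7%) among tested genes. CCAAT, the letters bound by NF-Y, stood in 25 of the 34 windows (73.5%), in 29 of the 43 of G2 and mitosis genes (67.4%) and in 38.0% of those of tested genes. The median GC content was 65.0% for the S phase genes and 66.0% for tested genes. A match is a description of letters and does not show binding in these cells.

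**Figure D1:**
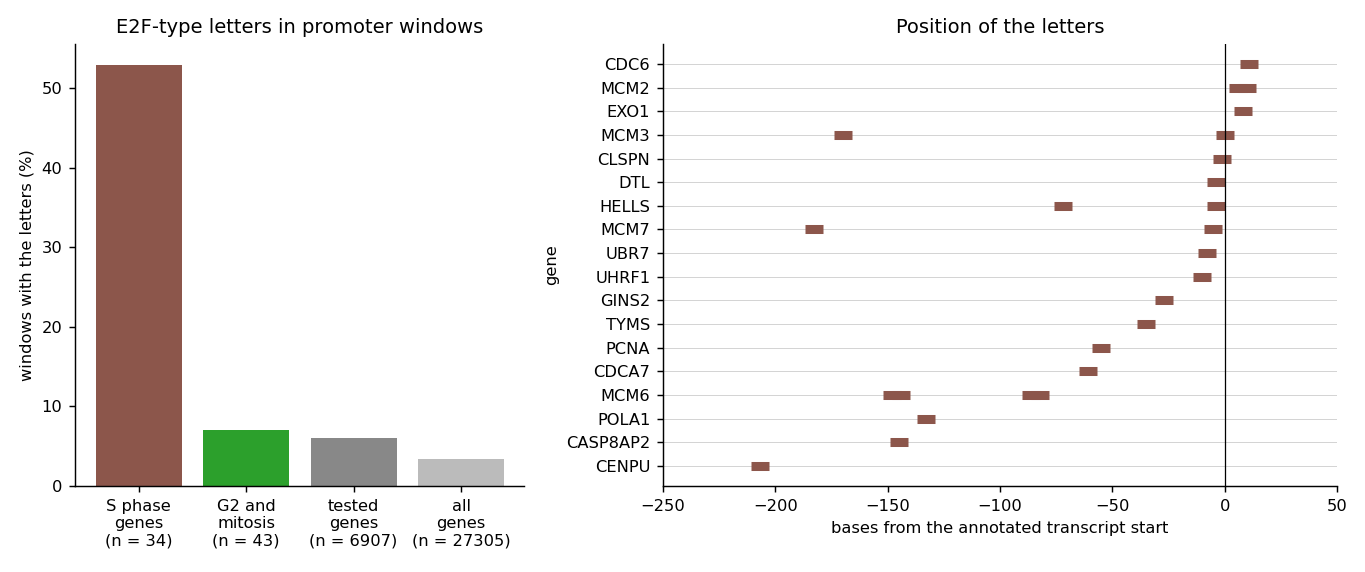
The left panel plots the percentage of promoter windows that hold an E2F-type core on either strand, for the S phase genes, G2 and mitosis genes, tested genes and all genes. The right panel marks each match in bases from the annotated transcript start for the 18 S phase genes that have one. The S phase genes stand at 52.9%, against 6.08% of tested genes, and 12 of 18 genes have a match within 50 bases of the start.

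Windows of 6 genes are printed. MCM7 and GINS2 are the genes called below that have a window here, MCM2, MCM3 and MCM6 are the other helicase subunits with a window, and PCNA is the clamp. These last 4 genes were not called. Each is given 5' to 3' on the gene's own strand, from RefSeq on GRCh38.p14, with the E2F-type letters in capitals. MCM2 lies at chr3:127598161-127598460 on the plus strand, MCM3 at chr6:52284693-52284992, MCM6 at chr2:135876394-135876693, MCM7 at chr7:100101348-100101647, GINS2 at chr16:85688905-85689204 and PCNA at chr20:5126573-5126872, all on the minus strand.
MCM2: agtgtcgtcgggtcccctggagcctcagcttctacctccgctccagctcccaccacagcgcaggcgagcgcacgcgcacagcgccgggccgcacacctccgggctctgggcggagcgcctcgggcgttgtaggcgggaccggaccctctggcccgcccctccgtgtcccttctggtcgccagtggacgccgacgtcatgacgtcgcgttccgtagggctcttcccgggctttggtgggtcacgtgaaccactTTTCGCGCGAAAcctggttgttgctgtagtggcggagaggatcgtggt
MCM3: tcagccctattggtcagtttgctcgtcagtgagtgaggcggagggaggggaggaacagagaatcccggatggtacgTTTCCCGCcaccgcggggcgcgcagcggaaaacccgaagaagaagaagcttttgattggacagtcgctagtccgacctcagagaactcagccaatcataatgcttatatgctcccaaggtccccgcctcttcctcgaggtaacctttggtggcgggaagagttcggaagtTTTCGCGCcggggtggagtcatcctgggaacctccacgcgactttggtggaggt
MCM6: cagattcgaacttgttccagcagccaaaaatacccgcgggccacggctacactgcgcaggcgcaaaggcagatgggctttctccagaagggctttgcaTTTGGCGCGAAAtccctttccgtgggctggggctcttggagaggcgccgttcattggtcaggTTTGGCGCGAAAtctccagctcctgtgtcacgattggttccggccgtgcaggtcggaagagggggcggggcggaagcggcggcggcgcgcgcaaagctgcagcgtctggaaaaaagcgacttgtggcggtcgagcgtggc
MCM7: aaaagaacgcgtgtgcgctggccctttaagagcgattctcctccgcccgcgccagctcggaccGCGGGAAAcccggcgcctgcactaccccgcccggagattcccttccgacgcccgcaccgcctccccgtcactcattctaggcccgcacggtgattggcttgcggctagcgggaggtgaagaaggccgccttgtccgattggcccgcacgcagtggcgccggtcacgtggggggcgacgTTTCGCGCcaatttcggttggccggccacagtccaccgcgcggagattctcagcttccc
GINS2: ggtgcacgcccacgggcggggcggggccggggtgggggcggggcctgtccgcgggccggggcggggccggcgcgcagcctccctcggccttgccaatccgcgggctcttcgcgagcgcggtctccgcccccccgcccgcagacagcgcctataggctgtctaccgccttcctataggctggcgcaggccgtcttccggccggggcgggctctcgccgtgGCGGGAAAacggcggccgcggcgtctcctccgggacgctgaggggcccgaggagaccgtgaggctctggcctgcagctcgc
PCNA: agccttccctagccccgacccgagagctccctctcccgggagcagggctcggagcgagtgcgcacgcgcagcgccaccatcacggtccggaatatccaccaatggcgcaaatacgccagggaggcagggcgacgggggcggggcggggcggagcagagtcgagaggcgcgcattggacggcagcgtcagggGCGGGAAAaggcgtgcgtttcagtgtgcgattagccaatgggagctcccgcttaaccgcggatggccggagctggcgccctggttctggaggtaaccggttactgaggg
MCM6 has 2 stretches, whose first bases lie 152 and 90 bases before the start. In each of them TTTGGCGC overlaps TTTCGCGC on the other strand. MCM2 has a single palindromic stretch that begins 2 bases after the start. In MCM7 and MCM3 the match nearest the start begins 9 and 4 bases before it, and each has another further upstream, 187 and 174 bases before the start. GINS2 has 1 match, 31 bases before the start, and PCNA has 1, 59 bases before it.

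All 43 genes had at least 1 count in every library. E2F8, with 1 and 3 counts in batch B libraries 1 and 3, and CLSPN, with 3 in batch A library 2, did not exceed the limit of 3 counts there. Counts were not divided by transcript length, since only 5' ends were kept, and values of different genes are therefore given side by side without being ranked as levels. Mean CPM over the 5 libraries ran from 9.35 for E2F8, a repressor of the E2F family, to 560 for RPA2. The 43 genes together took 20532 of 3124391 gene counts. Their share was 0.683% (95% exact Clopper-Pearson interval 0.657 to 0.710), 0.664% (0.643 to 0.685) and 0.667% (0.648 to 0.686) in batch B libraries 1, 2 and 3. It was 0.646% (0.627 to 0.665) and 0.642% (0.625 to 0.660) in batch A libraries 2 and 3. The share averaged 0.671% ± 0.0101 in batch B (SD, n = 3) and 0.644% ± 0.00235 in batch A (SD, n = 2). Every batch B library lay above both batch A libraries, by a mean of 0.0272 percentage points. The interval of each batch B library still overlapped those of both batch A libraries. The difference was not even over the genes. MCM2 to MCM7 alone differed by 0.0291 percentage points. RPA2, MCM7 and MCM4 averaged 626, 584 and 338 CPM in batch B, against 461, 435 and 258 CPM in batch A. Of the 42 genes tested below, 26 had a log2 fold change above 0 and 16 below. Rows of the mitochondrial genome moved as well, at 4.48% ± 0.832 of gene counts in batch B and 3.11% ± 0.194 in batch A, and their part in the difference was not tested. With those rows left out of the total, the S phase share was 0.703% ± 0.0164 in batch B and 0.665% ± 0.00375 in batch A. In such bulk libraries, a change in the fraction of cells in S phase and a change in RNA per cell cannot be told apart. Intervals cover counting error only.

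**Figure D2:**
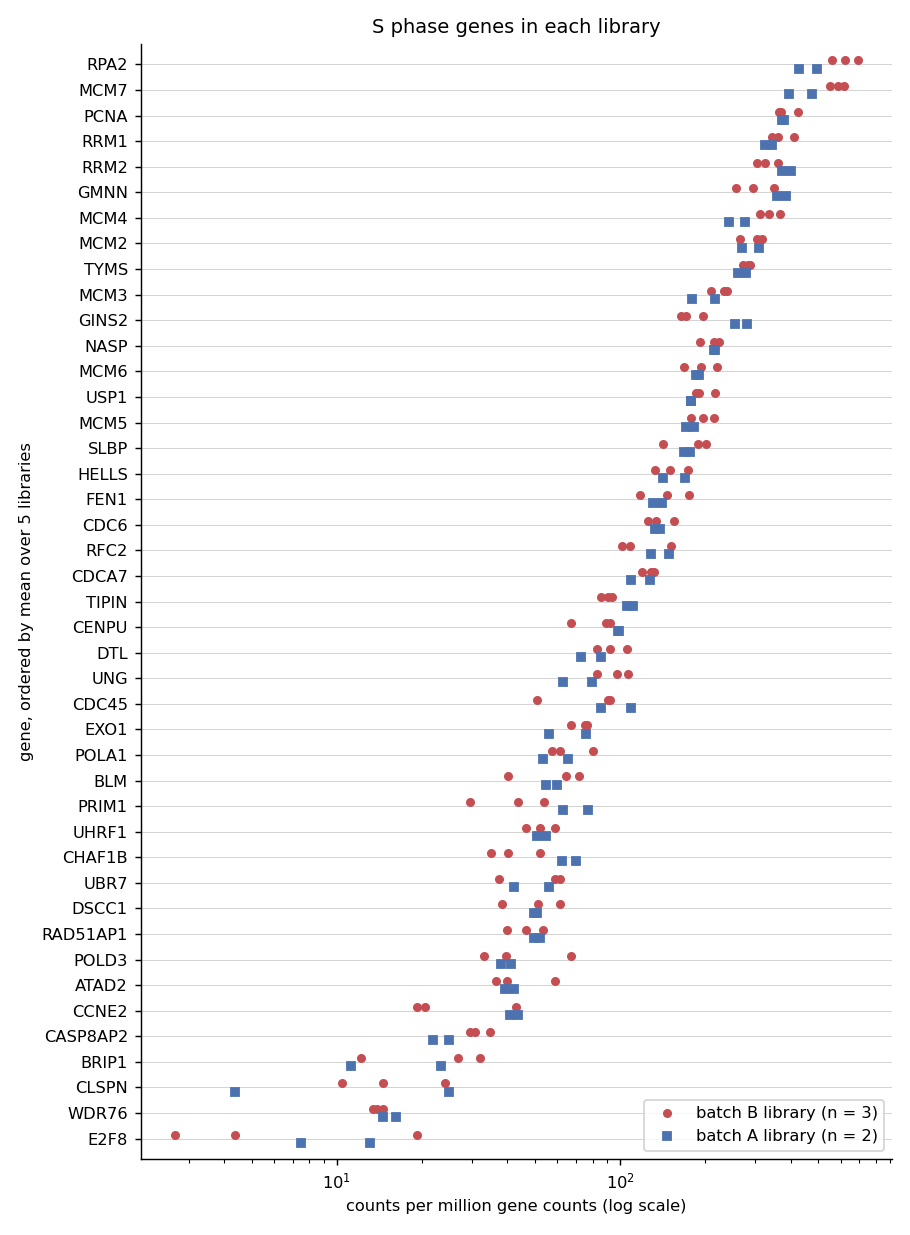
Each row is a gene, and points give CPM of gene counts on a log axis, with the 3 batch B libraries as red circles and the 2 batch A libraries as blue squares. RPA2 and MCM7 lie with every batch B library above both batch A libraries, and GINS2 with every batch B library below both.

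**Figure D3:**
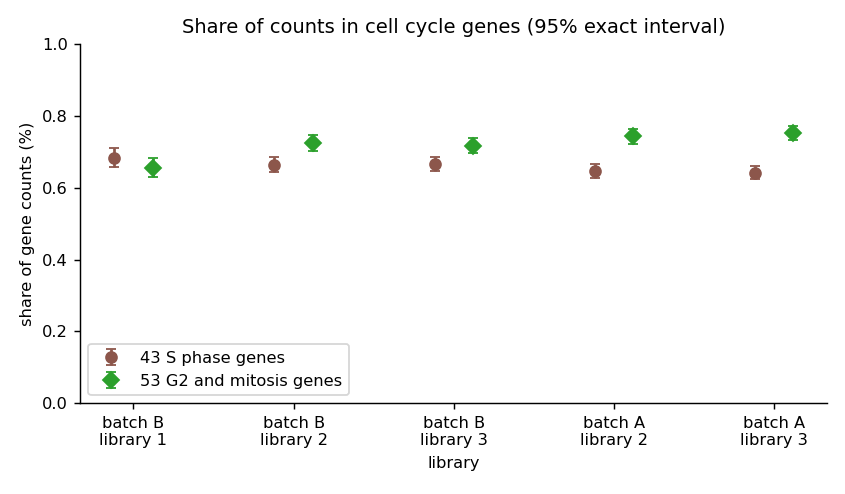
Points give the percentage of gene counts that fell on the 43 S phase genes and on 53 G2 and mitosis genes in each library, with 95% exact binomial intervals as bars. The S phase share runs from 0.664% to 0.683% in batch B and from 0.642% to 0.646% in batch A.

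Batch B was compared with batch A to ask which S phase genes differ between separate profilings of 1 line. MCM4 and MCM7, subunits of the replicative helicase, and RPA2, the middle subunit of the single-strand binding protein, rose in batch B by 1.31-fold, 1.36-fold and 1.38-fold. GINS2, a subunit of the complex that activates the helicase, was 1.49-fold lower in batch B. The other 38 genes tested did not pass, among them PCNA, TYMS, RRM1 and RRM2. E2F8, with 1 to 11 counts per library, fell below the filter on low counts and was not tested. In the quasi-likelihood test of edgeR, with Benjamini-Hochberg adjusted p-values over all 9215 genes tested, 4 of the 42 were called (9.52%), against 4.2% of all genes. In the upward direction 3 were called, against 2.15% of all genes, and in the downward direction 1, against 2.05%. Genes with more counts are called more often. Among the 16 S phase genes with a mean count of at least 100, 4 were called (25.0%), against 12.2% of the 1280 such genes in all. Among the 26 with fewer counts none was called, by edgeR, DESeq2 or limma-voom. Of these 26, 4 had an unadjusted edgeR p under 0.05, against 1116 of the 7935 such genes in all. Over every count, 10 of the 42 S phase genes had such a p, against 1514 of all 9215 genes. DESeq2 called GINS2, MCM7 and RPA2 of the 37 S phase genes to which it gave an adjusted p. Of all 5288 genes to which it gave one, it called 104 (1.97%). The batches did not overlap in CPM for 14 of the 42 genes, 7 above and 7 below, which is 33.3% against 31.3% of all genes tested. The median log2 fold change was 0.09 for the 42 genes and 0.00 for all genes, with 26 values above 0 and 16 below. Without batch B library 1, the shallowest, that median was -0.01. Without batch A library 3 edgeR called 0 S phase genes, and 8 had an unadjusted p under 0.05.

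**Figure D4:**
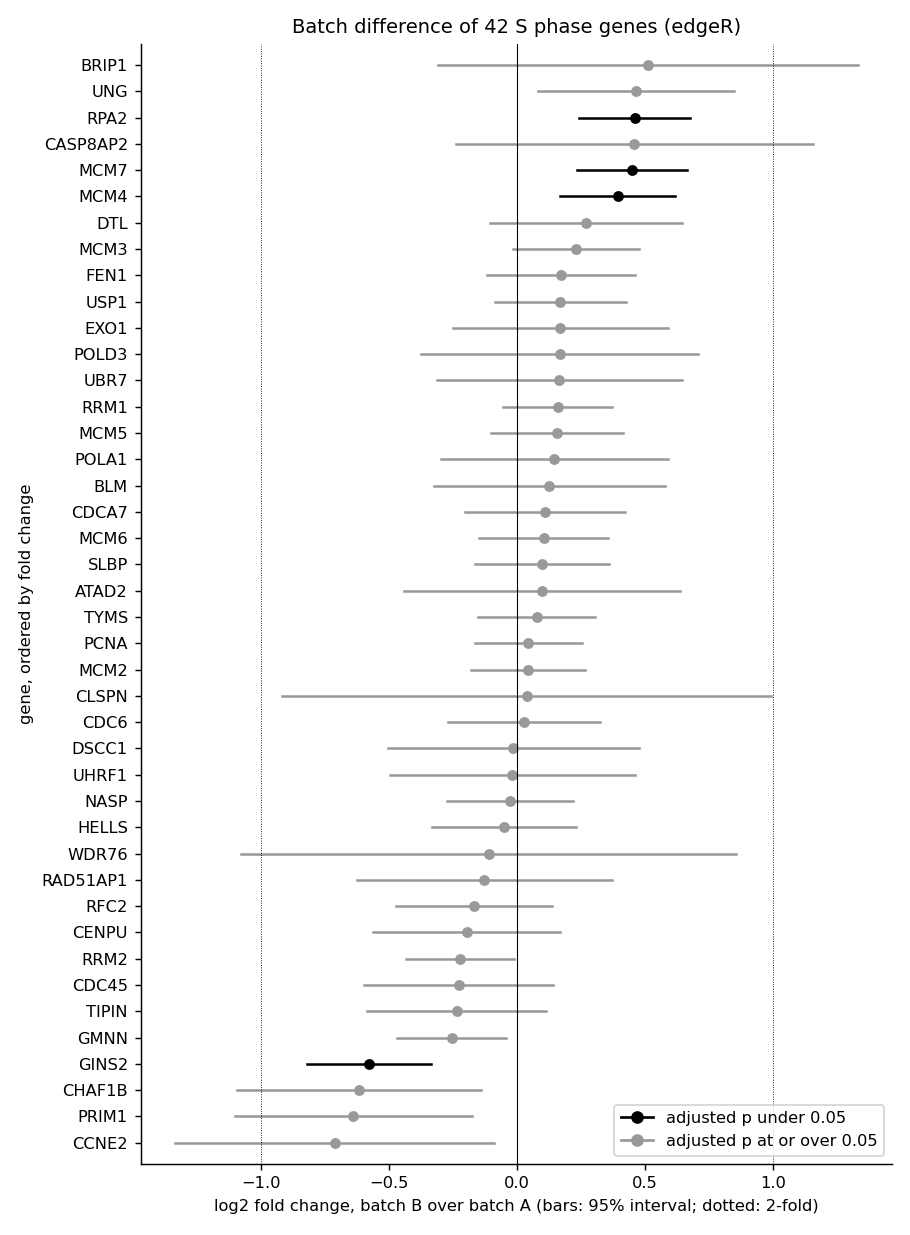
Points give the log2 fold change of batch B over batch A for the 42 tested genes, with 95% intervals as bars; genes called at an adjusted p under 0.05 are black and the others grey. MCM4 (0.39), MCM7 (0.45) and RPA2 (0.46) are the called rises and GINS2 (-0.58) is the called fall.

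The MCM2-7 ring contains each of its 6 subunits in a single copy. MCM7 had 230, 338 and 377 counts in batch B libraries 1, 2 and 3, and 326 and 317 in batch A libraries 2 and 3. In CPM this was 615, 587 and 550 CPM in batch B, against 475 and 395 CPM in batch A. All 3 batch B libraries were above both batch A libraries, and MCM7 rose by 0.45 on the log2 scale (SE 0.11, 95% interval 0.23 to 0.66, edgeR adjusted p = 0.00294). MCM4 had 137, 180 and 230 counts in batch B and 166 and 221 in batch A, or 367, 313 and 336 CPM against 242 and 275 CPM. The batches did not overlap, and MCM4 rose by 0.39 (SE 0.11, edgeR adjusted p = 0.0206). The call of MCM4 was lost without any single one of batch A library 2, batch A library 3 or batch B library 1 (edgeR adjusted p = 0.285, 0.0807 and 0.0849), and that of MCM7 without batch A library 3 (0.385).

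None of the other 4 MCM subunits passed the test. Their log2 fold changes were all above 0 in the main fit. Over the 14 alternative fits that of MCM2 ran from -0.07 to 0.17, so its sign was not stable. MCM3 had 209, 238 and 234 CPM in batch B and 179 and 215 CPM in batch A, a log2 fold change of 0.23 (edgeR adjusted p = 0.348). MCM2 had 316, 266 and 304 CPM in batch B and 310 and 270 CPM in batch A, so that the groups overlapped almost completely. MCM5 and MCM6 had log2 fold changes of 0.16 and 0.10, with overlapping batches. The 95% interval of MCM2 ran from -0.18 to 0.27 on the log2 scale. All 6 subunits together took 0.183% ± 0.00493 of gene counts in batch B (SD, n = 3) and 0.154% ± 0.00404 in batch A (SD, n = 2). Whether MCM4 and MCM7 differed from the other subunits in their change was not tested.

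Loading of the ring is done by CDC6 and CDT1 and held back by geminin, the product of GMNN, which binds CDT1. CDC6 averaged 138 ± 15.4 CPM in batch B and 136 ± 3.59 CPM in batch A (SD, n = 3 and 2), a log2 fold change of 0.03 with an interval of -0.27 to 0.33. GMNN had 257, 294 and 349 CPM in batch B, against 357 and 385 CPM in batch A. Every batch B library was below both batch A libraries, but the log2 fold change of -0.25 did not pass the test (edgeR adjusted p = 0.193). CDT1, outside the 43 genes but in the list of licensing genes, had 95, 140 and 160 counts in batch B and 101 and 135 in batch A, and rose by 0.64 (SE 0.13, edgeR adjusted p = 0.000147). The rise of CDT1 was 0.39 with GC content and transcript length trends removed, an alternative chosen after seeing the data, and no longer passed (edgeR adjusted p = 0.0780). The 6 subunits of the origin recognition complex did not pass, with log2 fold changes from -0.30 for ORC6 to 0.11 for ORC4.

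Helicase activation showed the single called fall. GINS2 had 64, 113 and 112 counts in batch B libraries 1, 2 and 3 and 175 and 225 in batch A libraries 2 and 3. In CPM this was 171, 196 and 163 CPM in batch B, against 255 and 280 CPM in batch A. The highest batch B library was well below the lowest of batch A, and GINS2 fell by 0.58 on the log2 scale (SE 0.12, 95% interval -0.82 to -0.33, edgeR adjusted p = 0.00045). Batch B library 3 and batch A library 2 were of nearly equal depth, and there the raw counts were 112 in batch B and 175 in batch A. GINS2 no longer passed without batch A library 3 (-0.52, edgeR adjusted p = 0.0609) and after thinning all libraries to the smallest (-0.46, edgeR adjusted p = 0.0808). The partner subunits GINS1, GINS3 and GINS4 had log2 fold changes of -0.27, -0.11 and -0.06, none past the test. CDC45, which joins GINS and MCM in the active helicase, had 19, 52 and 63 counts in batch B and 75 and 69 in batch A, with overlapping CPM. Its log2 fold change of -0.23 did not pass (edgeR adjusted p = 0.603).

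**Figure D5:**
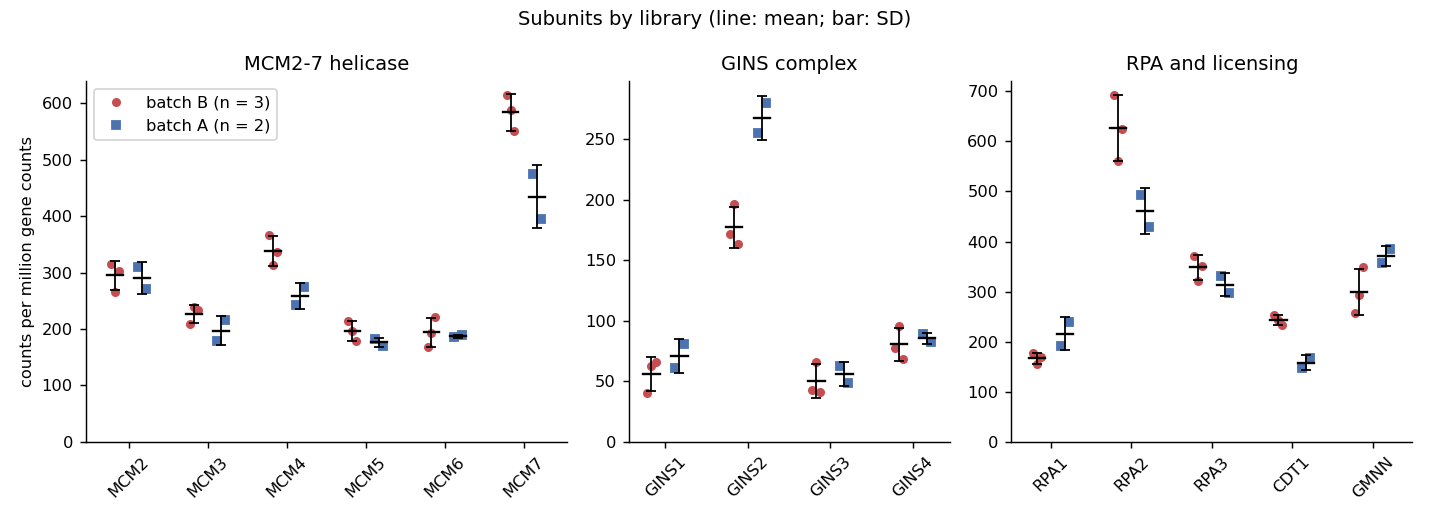
Points give CPM of gene counts per library for the MCM2-7 subunits, the GINS subunits, the 3 RPA subunits, CDT1 and GMNN, with batch B left of batch A for each gene, the mean as a line and the SD as a bar. MCM4, MCM7, RPA2 and CDT1 passed the test as higher in batch B and GINS2 as lower.

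RPA coats single-stranded DNA as a complex of 3 subunits. RPA2 had 259, 323 and 428 counts in batch B and 339 and 344 in batch A, or 693, 561 and 625 CPM against 494 and 428 CPM. All batch B libraries were above both of batch A, and RPA2 rose by 0.46 (SE 0.11, 95% interval 0.24 to 0.68, edgeR adjusted p = 0.0022). Without batch A library 3 the rise was 0.34 and not called (edgeR adjusted p = 0.298). RPA2 and MCM7 also varied more within a batch than most S phase genes, with a chi-square per degree of freedom of 4.46 and 3.79. Sampling noise alone gives a mean of 1, and the 42 genes had a mean of 1.38 and a median of 1.15. All 9215 tested genes also had a mean of 1.38, with a median of 0.98. In the edgeR fit the spread was taken from genes of like abundance alone, because its estimated prior degrees of freedom were infinite. The larger spread of a single gene such as RPA2 or MCM7 is therefore not counted in its p or interval. RPA1, the large subunit, had a log2 fold change of -0.36 (edgeR adjusted p = 0.0889) and RPA3, the small subunit, 0.17 (edgeR adjusted p = 0.478), and neither passed. The clamp PCNA had 425, 370 and 365 CPM in batch B and 373 and 380 CPM in batch A, an overlap in both directions, and its interval of -0.16 to 0.25 on the log2 scale lay within a 1.5-fold change either way. RFC2, of the clamp loader, and DSCC1, of the alternative loader used in sister chromatid cohesion, had log2 fold changes of -0.17 and -0.01.

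The enzymes that supply deoxynucleotides did not pass the test. Of 10 listed genes, 4 had an unadjusted edgeR p under 0.05, against 1514 of all 9215 genes tested. RRM1, the large subunit of ribonucleotide reductase, had 409, 361 and 344.4 CPM in batch B and 343.6 and 325 CPM in batch A. RRM2, its small subunit and the one made mainly in S phase, had 361, 304 and 324 CPM in batch B, against 402 and 374 CPM in batch A. For RRM1 every batch B library was above both batch A libraries, by a narrow margin, and for RRM2 every batch B library was below both. Their log2 fold changes were 0.16 (edgeR adjusted p = 0.500) and -0.22 (0.272). TYMS, thymidylate synthase, had 286, 271 and 282 CPM in batch B and 278 and 260 CPM in batch A. It averaged 279.7 ± 7.82 CPM in batch B and 269 ± 12.6 CPM in batch A (SD, n = 3 and 2), with a log2 fold change of 0.08. Among the other 7 genes of this list none was called, and the lowest value was that of the deoxycytidine kinase DCK, at -1.13 (edgeR adjusted p = 0.0720) on 5 to 10 counts per library in batch B and 24 and 27 in batch A.

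Polymerases, primase and FEN1 gave no edgeR call among 4 genes, with only PRIM1 at an unadjusted p under 0.05. PRIM1, the catalytic subunit of primase, had 11, 25 and 37 counts in batch B and 43 and 62 in batch A. Every batch B library was below both of batch A in CPM, at 29.4, 43.4 and 54.0 CPM against 62.6 and 77.2 CPM, but the log2 fold change of -0.64 (SE 0.24) did not pass (edgeR adjusted p = 0.105). POLA1, the catalytic subunit of polymerase alpha, and POLD3, an accessory subunit of polymerase delta, had log2 fold changes of 0.15 and 0.17 on 30 to 45 and 19 to 33 counts per library. FEN1, the flap endonuclease that trims Okazaki fragments, had a log2 fold change of 0.17 with an interval of -0.12 to 0.46.

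Of the 10 genes of fork protection and repair edgeR called none, and only UNG had an unadjusted p under 0.05. UNG, the uracil-DNA glycosylase, had 83.0, 97.3 and 107 CPM in batch B and 62.6 and 79.7 CPM in batch A, above in every library, with a log2 fold change of 0.47 (edgeR adjusted p = 0.176). TIPIN, a fork protection factor, had 85.6, 90.4 and 93.4 CPM in batch B, against 111 and 106 CPM in batch A. USP1, which removes ubiquitin from PCNA and FANCD2, had 190.0, 215 and 185 CPM in batch B and 178 CPM in both libraries of batch A. The batches of TIPIN and USP1 did not overlap either, in opposite directions, at log2 fold changes of -0.23 and 0.17 (edgeR adjusted p = 0.563 and 0.565). Over the 14 alternative fits the value of TIPIN ran from -0.29 to 0.15, so its direction was not stable. That of USP1 ran from 0.10 to 0.25. CLSPN (claspin, a checkpoint mediator) had 9, 6 and 10 counts in batch B libraries 1, 2 and 3, against 3 and 20 in batch A libraries 2 and 3, so that the libraries of batch A lay on either side of those of batch B. EXO1, BLM, BRIP1, DTL, WDR76 and RAD51AP1 had log2 fold changes from -0.13 to 0.51, with overlapping batches.

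The 10 genes of chromatin assembly and maintenance gave no edgeR call, with only CHAF1B at an unadjusted p under 0.05, and their median log2 fold change was 0.04. CHAF1B, a subunit of the CAF-1 chaperone that deposits histones behind the fork, had 15, 30 and 24 counts in batch B and 48 and 50 in batch A. All batch B libraries were below both of batch A, at 40.1, 52.1 and 35.0 CPM against 69.9 and 62.3 CPM, with a log2 fold change of -0.61 (edgeR adjusted p = 0.141). CENPU, a centromere protein, was also below in every batch B library, at 66.9, 92.1 and 89.0 CPM against 99.0 and 98.4 CPM. Its log2 fold change was -0.20 (edgeR adjusted p = 0.665). CASP8AP2, a factor of histone gene expression, was above in every batch B library, at 29.4, 34.8 and 30.6 CPM against 21.8 and 24.9 CPM. Its log2 fold change was 0.46 on 11 to 21 counts (edgeR adjusted p = 0.571). The histone chaperone NASP, the histone mRNA binding protein SLBP, the methylation maintenance factor UHRF1, the remodeler HELLS and its partner CDCA7 had log2 fold changes from -0.05 to 0.11. Those of the bromodomain ATPase ATAD2 and of UBR7, a UBR-box protein, were 0.10 and 0.17, also with overlapping batches. CCNE2, a cyclin E, had 16, 11 and 14 counts in batch B and 28 and 35 in batch A, and its CPM overlapped because batch B library 1 was at 42.8 CPM, between the 40.8 and 43.6 CPM of batch A. Its log2 fold change was -0.71 (edgeR adjusted p = 0.218).

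Beyond the 43 genes, 70 further genes of replication and of the E2F and cyclin E axis were listed by role. Of the 69 tested, CDT1 rose and TFDP1 fell (2.90% called, against 4.2% of all genes), and their median log2 fold change was -0.03. TFDP1, the DNA-binding partner of E2F factors, had 44, 62 and 82 counts in batch B and 119 and 137 in batch A, below in every library, and fell by 0.56 (SE 0.15, edgeR adjusted p = 0.00995). That call was lost without either batch A library or without batch B library 2 (edgeR adjusted p = 0.137, 0.0860 and 0.0786). It was also lost after thinning all libraries to the smallest (edgeR adjusted p = 0.316) and with the DESeq2 Wald test (adjusted p = 0.124). E2F1 and E2F3 had log2 fold changes of 0.50 each and E2F7 -0.84, none past the test (edgeR adjusted p = 0.328, 0.264 and 0.292). Of the 34 S phase genes with a promoter window, the 18 with E2F-type letters had a median log2 fold change of 0.09 and ranged from -0.58 for GINS2 to 0.46 for CASP8AP2. The 16 without them had a median of -0.08 and ranged from -0.64 for PRIM1 to 0.51 for BRIP1. Of the called genes with a window, GINS2 and MCM7 both carry the letters and moved in opposite directions.

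How far a batch difference could hide in these counts depended on the gene. For 36 of the 42 genes the whole 95% interval lay within a 2-fold change in either direction, against 6402 of all 9215 genes tested. For 22 it lay within 1.5-fold, against 2714 of all genes. The 6 whose interval reached 2-fold had low counts, namely CCNE2, CHAF1B, PRIM1, BRIP1, CASP8AP2 and WDR76. These intervals rest on pooled spread and do not widen for a gene that varies more within a batch. That of CLSPN, with 3 and 20 counts in batch A, ran from -0.91 to 0.99 on the log2 scale. Some rows may share reads with an overlapping gene, and whether counting used strand is not given in the sources used here. In GENCODE 29, on the opposite strand, FEN1 overlaps exons of TMEM258, which had 276 to 604 counts per library, MCM7 overlaps AP4M1, at 5 to 18 counts, and TYMS overlaps ENOSF1, at 9 to 27 counts. CCNE2 shares 1629 exonic bases with INTS8 on the opposite strand, at 22 to 49 counts of INTS8 against 11 to 35 of CCNE2. PRIM1 shares 33 exonic bases with NACA on its own strand, at 487 to 930 counts of NACA. CHAF1B shares 89 with MORC3 on its own strand, at 4 to 15 counts of MORC3. Processed copies of PCNA, RPA2 and RRM2 with a row of their own had at most 1 count in any library.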

How the data were processed

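The deposited table holds whole-number counts per gene symbol, without normalization, as deposited by the authors. Tools and builds, namely cutadapt 1.2.1, STAR 2.4.0a and the builds hg19 and GRCh37, come from the submitters' processing notes. For counting, collapsing of molecular identifiers, annotation and strand, the method is not given in the sources used here. A column belongs to the batch whose sample titles share its prefix, and 0 columns were unused. CPM used gene counts without the 52 spike-in rows. Batch B was compared with batch A in edgeR 4.0.16 (R 4.3.3) with TMM, filterByExpr and the quasi-likelihood test over 9215 genes holding 97.1% of gene counts; genes were called at an adjusted p under 0.05. The estimated prior degrees of freedom were infinite, and standard errors come from the F statistic. DESeq2 1.42.0 and limma 3.58.1 were alternatives. The edgeR step was tested on simulated data.

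The genes, lists and roles were chosen with earlier results of these data known. Genes with full values are those called, those with batches that do not overlap and the 10 of highest mean CPM; of other pathway genes, those called. Other genes named, such as DCK, CCNE2, E2F1, E2F3 and E2F7, were chosen after their values were seen. GC content came from GENCODE 29 for 93.5% of tested genes.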

Additional observations from a re-analysis of the deposited data

How the results depend on the processing

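The 4 calls of S phase genes stayed the same 4 with DESeq2 size factors, library totals, a mean count of at least 20, limma-voom, and with abundance or GC and length trends removed (the trend removals were chosen after seeing the data). MCM4 was lost without a filter on low counts and with the DESeq2 Wald test (3 calls each), and GINS2 and MCM4 after thinning to the smallest library (2 calls). Leaving out a library gave 0 to 4 calls, and the cause was not tested. Over all genes 387 calls became 104 with DESeq2 and 196 after thinning, and 138 to 333 when a library was left out. The median log2 fold change of the S phase genes was -0.0129 to 0.0979 when a library was left out. The difference in their share of gene counts was 0.0215 to 0.0309 percentage points when a library was left out and 0.0381 with mitochondrial rows out of the total. No paired analysis was possible because the columns of batch A end in 2 and 3 while the titles number its replicates otherwise. Fits with a lone batch A library assume that it varies like batch B. Depth limits the genes of low count: those under a mean of 100 are called in 2.91% of all cases, against 12.2% above it.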

Other observations

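In the pair of libraries of nearly equal depth, batch B library 3 and batch A library 2, which was chosen with the depths known, 19 of the 43 S phase genes had more counts in batch B, 22 had fewer and 2 had the same number. The median log2 ratio of raw counts was -0.02 over the 42 tested S phase genes and 0.02 over all tested genes. The ratio was 0.47 for MCM4, 0.34 for RPA2, 0.21 for MCM7 and -0.64 for GINS2.

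Within batches, the chi-square per degree of freedom of the 42 S phase genes had a median of 1.15, on 3 degrees of freedom per gene. Over the 8415 tested genes in the same range of mean count the median was 0.95. After RPA2 the highest value was that of CLSPN, at 4.28, from its 3 and 20 counts in batch A.

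Of 52 tested G2 and mitosis genes, 1 was higher and 2 were lower in batch B (5.77%, against 4.2% of all genes), and the median log2 fold change was -0.05. NUSAP1, a spindle protein, rose by 0.45, while UBE2C, a ubiquitin-conjugating enzyme of the anaphase-promoting complex, and CKS2, a subunit that binds cyclin-dependent kinases, fell by 0.37 and 0.36 (edgeR adjusted p = 0.0439, 0.0194 and 0.0228). The 53 genes with a row took 0.698% ± 0.0376 of gene counts in batch B (SD, n = 3) and 0.747% ± 0.00626 in batch A (SD, n = 2). Whether the G2 and S phase shares moved differently was not tested.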
